A study of Bos taurus with 6 samples.

Results

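The heat shock and unfolded protein response genes were described in bovine cumulus cells, which enclose the oocyte in the follicle, after culture with or without FID, a mixture meant to raise cyclic AMP. The set was a list of 38 chaperones, stress sensors, transcription factors and stress targets, matched to the array by gene symbol. Probes for 34 of them carried the listed symbol, and XBP1 was added through an older platform name that RefSeq lists as its synonym, which gave 35 of 38 genes on 52 probes. ATF6, CANX and DNAJA1 had no probe under these names and were not analysed here. All 35 genes passed the filter on dim signal, on 50 of the 52 probes, among 12371 named genes and 32192 probes tested in all.

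Cells cultured with FID received 100 µM forskolin, which activates adenylyl cyclase, together with the phosphodiesterase inhibitors IBMX at 500 µM and dipyridamole at 50 µM. Control cells had the same medium with estradiol and serum and none of the 3 compounds. Both came from cumulus-oocyte complexes of Holstein cows' ovaries collected at slaughter, and RNA of both was amplified and hybridised together on 2-colour arrays. The biological replicates were 3, with the numbers 1, 2 and 4, and a dye swap put each on 2 arrays. Control samples are named as 6 h, whereas the culture protocol gives 22 to 24 h for both conditions, so a difference in time and the effect of FID cannot be told apart here. Nothing in the labels says whether the replicates came from separate pools of animals, so the p-values hold only for these 3 replicates. In such bulk samples, fewer cells of a type and less RNA per cell cannot be told apart.

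Chaperones help proteins fold, and heat shock factors raise those of the cytosol when unfolded proteins build up there. In the endoplasmic reticulum (ER), the sensors encoded by EIF2AK3 (PERK), ERN1 (IRE1) and ATF6 answer unfolded proteins. IRE1 splices the XBP1 mRNA, PERK slows translation and favours that of ATF4, and ATF4 and XBP1 then act on genes for folding, degradation, amino acid supply and cell death. In the final hours before ovulation cumulus cells deposit much hyaluronan-rich matrix, whose proteins pass through the secretory pathway.

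Median spot intensity per array was 173 to 294 in FID cells and 143 to 255 in control cells, and 51.1% to 84.7% of probes exceeded the negative controls in FID cells, against 58.4% to 86.5% in control cells. All ratios below are log2 ratios of FID over control, averaged over the arrays of a replicate. The standard error (SE) of a mean over n = 3 replicates is limma's moderated one, drawn towards the variance of all tested probes. This SE can thus be smaller or larger than the plain spread of the 3 replicates gives. Signals are normalized intensities that are not comparable between probes. Of the markers of granulosa and cumulus cells, 16 (among them FSHR, CYP19A1, INHA and HAS2) exceeded background in both conditions on all 6 arrays, with summed signals of 141387 to 151378 in FID cells and 151442 to 164659 in control cells. The defining markers FOXL2 and AMHR2 did not pass the filter. Individual cumulus markers differed: 0 passed in the test of the 3 replicate ratios, but 2 were higher and 7 lower with the replicate block, among them AMH at 1.71, KRT8 at -2.36, HAS2 at -1.60 and PTX3 at -1.55.

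Markers of other cell types differed too. Of 11 stroma and fibroblast markers, PDGFRA (-2.09) and LUM (-1.49) passed as lower in the test of the 3 replicate ratios. With the replicate block 4 did, among them DCN. It exceeded background on 3 arrays in FID cells and 6 in control cells, so it was tested only through the control cells. The summed signals of the 11 were 51179 to 58772 in FID cells and 59280 to 68027 in control cells. Of 9 blood and immune markers, 8 had a positive ratio and 2, HBA and LYZ, passed as higher with the replicate block. LYZ exceeded background on 4 arrays in FID cells and 0 in control cells. It was thus tested only through the cells where it is higher, and its call is no independent support. The summed signals of the 9 were 2493 to 5013 in FID cells and 2050 to 3248 in control cells. Oocyte markers did not behave alike in the replicates: the summed signal of 18 of them was 21048, 56243 and 2446 in the FID cells of replicates 1, 2 and 4, against 7776, 4239 and 2212 in the control cells. All 18 had a positive mean ratio, and their median ratio was 0.82, 2.49 and 0.09 in replicates 1, 2 and 4. The part of RNA from oocytes, stroma or blood in the results below was not tested.

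The members had ratios on both sides of 0. The transcripts that stood highest in FID cells over control were HERPUD1, HSPA1A, XBP1, DNAJB1, ATF4 and DDIT3, with mean ratios of 1.34 to 3.75, and those that stood lowest were HSPA4 and HSPD1, with -1.17 and -1.08. Of the 35 members, 23 had a positive and 12 a negative ratio, and their median was 0.10, beside 0.0076 over all tested genes. In limma's test of the 3 replicate ratios, adjusted over all 32192 probes at a threshold of 0.05, 0 members passed as higher, where 1.06% of all genes did, and 1 passed as lower, where 1.29% of all genes did. At an unadjusted p under 0.05 there were 15 members (42.9%), beside 28.6% of all genes, and 10 members (28.6%) had an adjusted p under 0.1, beside 13.8% of all genes. The smallest adjusted p of any probe on the array was 0.0476, so that the calls over all genes lay close to the threshold.

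When the 6 arrays were fitted jointly, with the replicate block and a term for the dye, 11 members passed as higher, where 8.84% of all genes did, and 2 as lower, where 11.9% of all genes did. This fit draws on the agreement of the dye-swapped arrays within a replicate and calls far more genes everywhere, so its calls are named as those of the replicate block. The 11 higher members include PPP1R15A, which passed the filter on dim signal only through the FID cells. Of these 13 members, 6 also passed it without each replicate in turn, namely HSPA4, DNAJB1, HERPUD1, XBP1, DDIT3 and DDIT4. The share of all genes that did so was not counted, so whether 6 of 13 is unusual is not known. These refits were chosen after seeing the data and used the correlation of all 6 arrays. Read array by array, 12 members, again with PPP1R15A, were higher in FID cells on all 6 arrays, where 12.4% of all genes were. On all 6 arrays 4 members were lower, where 15.4% of all genes were. The plot of ratios by member shows the spread of the replicates around each mean.

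**Figure D1:**
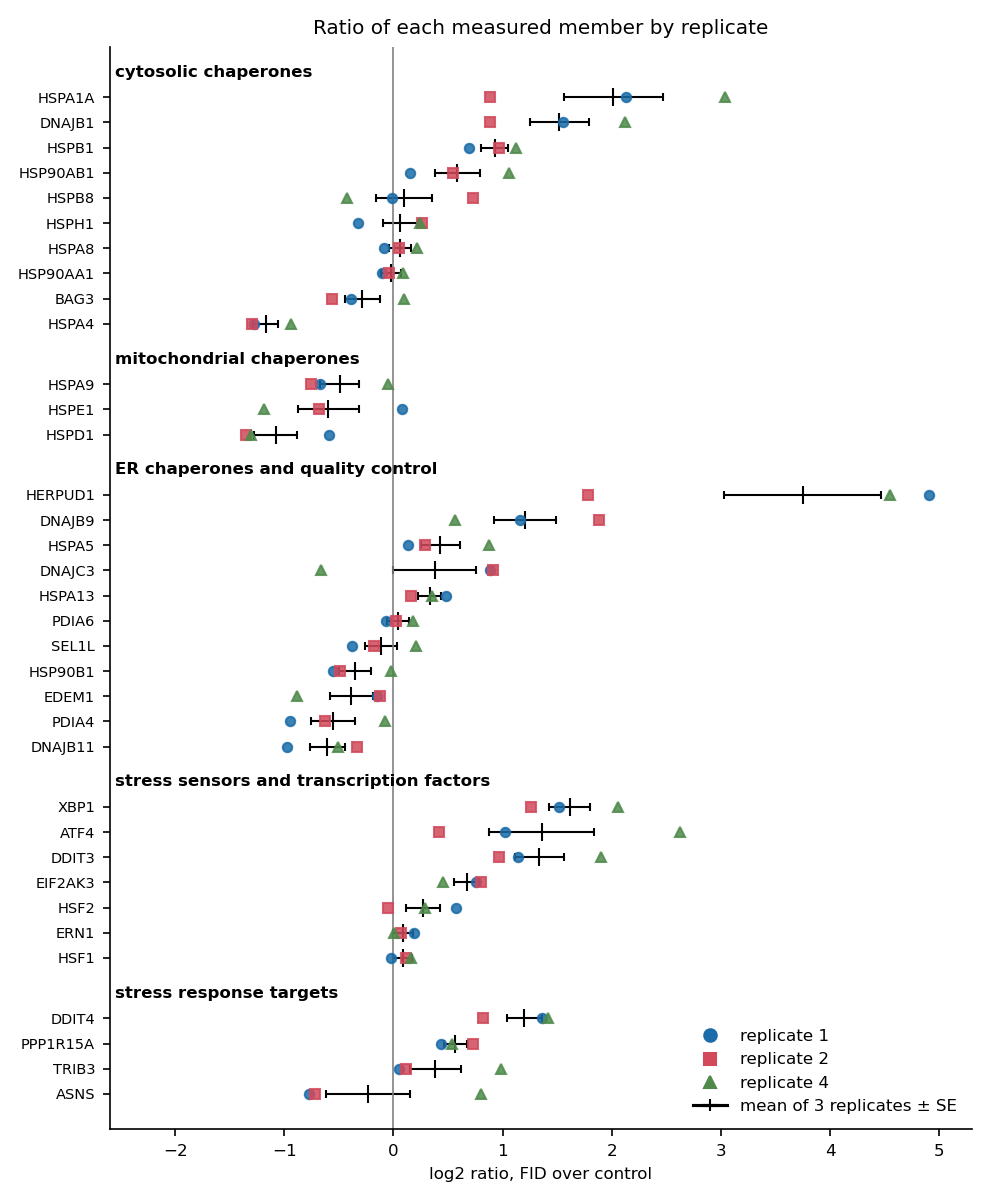
Log2 ratio of FID over control (x axis) of the 35 measured members, in 5 classes. Symbols are the 3 replicates and the bar is the mean ± moderated SE. HERPUD1 has the highest mean, 3.75, with replicate 2 at 1.78, and HSPA4 the lowest, -1.17, with its replicates close together.

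The classes differed in where their members lay. The 3 mitochondrial chaperones all had negative ratios, with a median of -0.60, whereas all 7 measured stress sensors and transcription factors had positive ones, with a median of 0.67. The 10 cytosolic chaperones (median 0.08) and the 11 ER chaperones and quality control genes (median 0.04) spread to both sides, and the 4 stress targets had a median of 0.48. These medians are descriptions of 3 to 11 genes without a test, and the difference between classes was not tested. The median of the mitochondrial class was -0.59, -0.75 and -1.18 in replicates 1, 2 and 4, and that of the sensors and factors was 0.75, 0.42 and 0.45. The medians of the cytosolic class were -0.05, 0.41 and 0.23, which is on both sides of 0. Over all tested genes the middle 50% of ratios ran between -0.26 and 0.21. Of the sensors and factors, HSF1 at 0.08 and ERN1 at 0.09 lay within that range. The positive sign was not shared by other sensors and integrated stress response genes, taken from the wider list described below. Of 27 tested, 8 had a positive and 19 a negative ratio, with a median of -0.23.

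**Figure D2:**
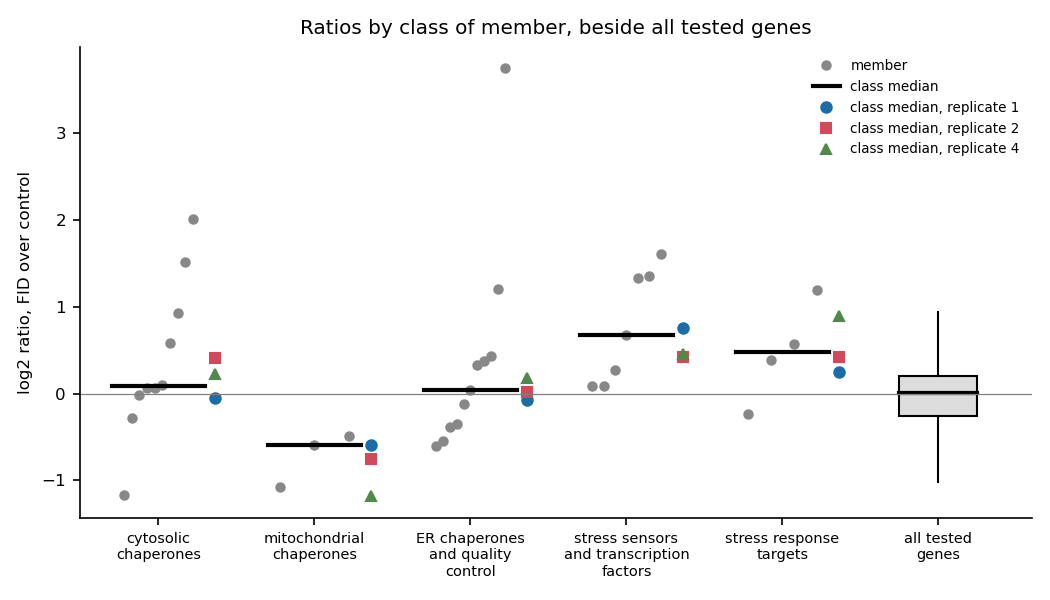
Log2 ratio of FID over control (y axis) of each member, by class, with the class median as a line and its value in each replicate as a symbol; the box at the right spans the 25th to 75th percentile of 12371 tested genes and its whiskers the 5th to 95th. The mitochondrial class lies wholly below 0 (median -0.60), the sensors and transcription factors wholly above it (median 0.67).

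Of the 10 cytosolic chaperones, HSPA1A, DNAJB1 and HSPB1 had higher signals in FID cells on all 6 arrays and passed with the replicate block but not in the test of the 3 replicate ratios, and HSPA4 passed both as lower. The other 6, among them the stress-inducible HSPH1, HSP90AA1 and BAG3, passed neither. HSPA1A, the inducible form of the main folding chaperone of the cytosol, had signals of 1268, 525 and 2343 in the FID cells of replicates 1, 2 and 4, against 290, 284 and 286 in the control cells. The control cells were nearly equal, the FID cells lay above all of them, and replicate 2 was the lowest of the FID cells. The mean ratio was 2.02 ± 0.46 (4.04-fold, adjusted p = 0.108, and 0.00763 with the replicate block), rank 60 of 12371 genes from the top. A second probe, which the platform assigns to the near-identical gene HSPA1B, gave 1.95 ± 0.47, and these copies cannot be told apart.

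DNAJB1, the co-chaperone that delivers substrates to HSPA1A and HSPA8, had signals of 1895, 1307 and 1953 in FID cells and 646, 707 and 450 in control cells. The groups did not overlap, and replicate 2 again had the smallest gap. Its ratio was 1.52 ± 0.27 (adjusted p = 0.0791, and 0.00424 with the replicate block), and its other probes gave 1.68 ± 0.34 and 0.94 ± 0.14. The probe with 0.94 depended on the dye, at 0.32, 0.01 and 0.38 with FID in Cy5 and 1.53, 1.34 and 2.06 in Cy3. HSPB1, a small heat shock protein that holds unfolded proteins in solution, had 4144, 4390 and 4364 in FID cells and 2569, 2240 and 2003 in control cells. Its FID cells were close together and all higher than control, with a ratio of 0.93 ± 0.12 (adjusted p = 0.0575, and 0.0044 with the replicate block) and 0.88 ± 0.12 on its second probe. The size of the first ratio depended on the dye, at 0.39, 0.49 and 0.66 with FID in Cy5 and 0.99, 1.46 and 1.58 in Cy3. The second probe differed less, at 0.64, 0.90 and 0.98 with FID in Cy5 and 0.65, 1.05 and 1.09 in Cy3.

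HSPA4, of the HSP110 family, is a nucleotide exchange factor of these folding chaperones. It was the member that passed the test, and it fell in FID cells. Its signals were 1096, 1023 and 1099 in FID cells, against 2662, 2510 and 2108 in control cells. All FID cells lay below all control cells, and the ratio was negative on all 6 arrays, at -1.17 ± 0.12 (2.25-fold lower, adjusted p = 0.0492, and 0.00143 with the replicate block). This call was lost, with adjusted p values up to 0.0620, without background correction, with marked spots kept, on the authors' deposited ratios and with trended robust variances. It was also lost when any 1 of replicates 1, 2 and 4 was left out, while the ratio then stayed between -1.29 and -1.11. The size of the HSPA4 ratio depended on the dye, at -0.95, -1.09 and -0.67 with FID in Cy5 and -1.61, -1.50 and -1.21 in Cy3. HSPH1, the stress-inducible member of the same family, had signals of 3367, 4244 and 4889 in FID cells and 4204, 3530 and 4139 in control cells. The groups overlapped, and its ratio was 0.06 ± 0.16 (adjusted p = 0.884, 95% confidence interval -0.39 to 0.51).

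The probes of HSPA8 and HSP90AA1 lay near the top of the scanner's range, where a ratio may be held towards 0. HSPA8, the constitutive counterpart of HSPA1A, had 36676, 38335 and 39875 in FID cells and 38923, 37096 and 34247 in control cells. HSP90AA1, the inducible cytosolic HSP90, had 36338, 37354 and 39125 in FID cells and 39062, 38430 and 36867 in control cells. The groups of both overlapped, with ratios of 0.06 ± 0.10 (adjusted p = 0.813) and -0.02 ± 0.09 (adjusted p = 0.938). Their spots reached 87.2% to 94.5% and 84.8% to 92.7% of the brightest spot of the array in FID cells, and 86.3% to 91.0% and 90.0% to 94.9% in control cells. By the median pixel, HSPA8 was saturated on 0 arrays and HSP90AA1 on 1 (control), and by how much their ratios were held back was not tested. The 95% confidence intervals were -0.23 to 0.35 for HSPA8 and -0.28 to 0.24 for HSP90AA1.

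HSP90AB1, the constitutive cytosolic HSP90, was dimmer and had 27364, 35270 and 36303 in FID cells and 24672, 24162 and 17485 in control cells. The groups did not overlap, but the gap was narrow in replicate 1 and 1 of its 6 arrays was lower in FID cells. Its ratio was 0.58 ± 0.21 (adjusted p = 0.211, and 0.0576 with the replicate block), which passed neither. The FID spots reached 61.9% to 83.5% of the brightest spot, so this ratio too may be held towards 0. BAG3, which couples these chaperones to autophagy, and its small heat shock partner HSPB8 had ratios of -0.28 ± 0.16 and 0.10 ± 0.26, with replicates of both signs.

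**Figure D3:**
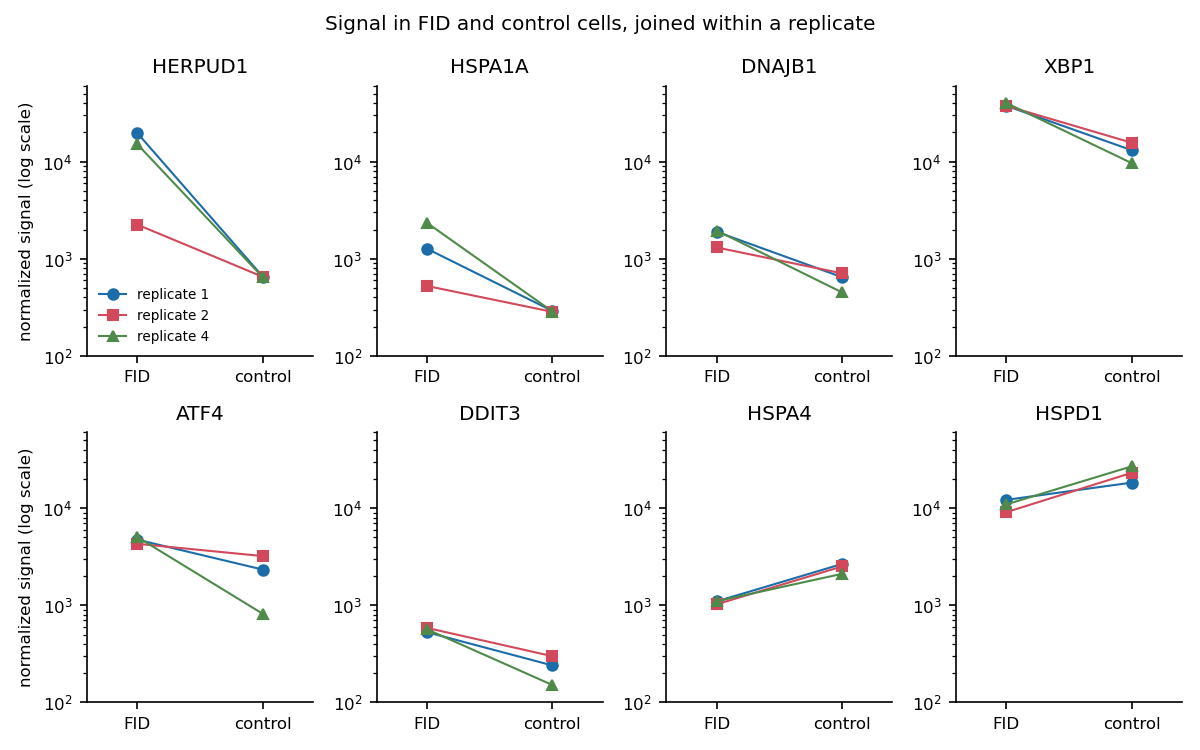
Normalized signal (y axis, log scale) of 8 members in FID cells (left) and control cells (right), with a line for each of the 3 replicates. For HERPUD1 and HSPA1A the control cells nearly coincide and the FID cells spread, with replicate 2 lowest (2246 and 525), while for ATF4 the control cells spread (816 to 3208) more than the FID cells.

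In the mitochondria, HSPD1 forms the barrel-shaped folding chamber and HSPE1 is its lid. HSPD1 had signals of 12154, 9077 and 10913 in FID cells and 18299, 23095 and 26921 in control cells. All FID cells lay below all control cells, and the ratio was negative on all 6 arrays, at -1.08 ± 0.19 (adjusted p = 0.0806, and 0.0196 with the replicate block). Its second, dimmer probe gave 0.37 ± 0.13 and depended on the dye, with -0.90 on the arrays with FID in Cy5 and 1.63 on those with FID in Cy3. The direction of HSPD1 thus rests on its brighter probe.

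HSPE1 is the neighbour of HSPD1 in the RefSeq annotation of ARS-UCD2.0, with 152 bases between the gene models. It had 7237, 4482 and 5412 in FID cells, against 6853, 7209 and 12298 in control cells. Replicate 1 showed no gap and replicate 4 the widest one, and the groups overlapped, so that the ratio of -0.60 ± 0.28 passed neither fit (adjusted p = 0.311, and 0.145 with the replicate block). In each replicate the ratio of HSPD1 lay below that of HSPE1, at -0.59, -1.35 and -1.30 for HSPD1 and 0.08, -0.69 and -1.18 for HSPE1 in replicates 1, 2 and 4. HSPA9, which pulls proteins into the mitochondrial matrix and folds them there, had a ratio of -0.49 ± 0.18 (adjusted p = 0.223), with replicate 4 at -0.05.

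Among the 11 ER genes, 6 had a positive and 5 a negative ratio. HERPUD1 and DNAJB9 stood highest in FID cells over control, and the other ratios ran from -0.60 to 0.43. HERPUD1, a membrane protein of the complex that removes misfolded proteins from the ER, had the second highest ratio of all 12371 tested genes. Its signals were 19684, 2246 and 15098 in FID cells and 655, 652 and 644 in control cells. The control cells were equal to within a few percent, and the FID cells were far above them, though replicate 2 was far below the others. The ratio was 4.91, 1.78 and 4.55 in replicates 1, 2 and 4, with a mean of 3.75 ± 0.72 (13.4-fold, adjusted p = 0.0869, and 0.0036 with the replicate block). The mean without replicate 2 was 4.73, and the lowest mean with 1 replicate left out was 3.17. Replicate 2 was also the one with the highest oocyte marker signal in FID cells (56243), whose part was not tested.

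DNAJB9, an ER co-chaperone that restrains IRE1, had 3081, 2289 and 2530 in FID cells and 1375, 622 and 1708 in control cells. The groups did not overlap, and here replicate 2 had the widest gap, the order of replicates that the oocyte markers also showed. Other members, among them DNAJC3 and EIF2AK3, had this order too, and the part of oocyte RNA was not tested. The ratio of DNAJB9 was 1.20 ± 0.29 (adjusted p = 0.115, and 0.0099 with the replicate block). DNAJB11, the co-chaperone that hands nascent proteins to HSPA5, had 5176, 8191 and 6136 in FID cells and 10174, 10300 and 8725 in control cells. It was lower in FID cells on all 6 arrays without overlap, at -0.60 ± 0.16, and passed neither fit (adjusted p = 0.137, and 0.05005 with the replicate block, just above the threshold). DNAJC3, an ER co-chaperone also described as an inhibitor of PERK, had ratios of 0.88, 0.91 and -0.66 in replicates 1, 2 and 4 and thus no common direction.

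HSPA5, the ER counterpart of HSPA8 known as BiP and the usual marker of the unfolded protein response, was at the ceiling of the scan. Its signals were 39246, 40158 and 43664 in FID cells and 35832, 32933 and 23833 in control cells. FID cells were higher on all 6 arrays and the groups did not overlap, but the FID spots were saturated on 4 of 6 arrays and the control spots on 0. On the arrays with FID in Cy5 the ratios were 0.22, 0.46 and 1.44 in replicates 1, 2 and 4, against 0.04, 0.11 and 0.31 with FID in Cy3, where the control spots were also near the ceiling. The mean of 0.43 ± 0.18 (adjusted p = 0.277, 95% confidence interval -0.08 to 0.94) may therefore be held towards 0, by an amount these arrays do not give. How much of the difference between the dyes came from saturation was not tested.

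HSP90B1, the HSP90 of the ER, had 23882, 21406 and 26605 in FID cells and 34979, 30118 and 27033 in control cells. Its brightest probe was lower in FID cells on all 6 arrays, at -0.36 ± 0.15 (adjusted p = 0.264), but a second probe gave 0.48 ± 0.12, so that its direction is not settled. PDIA6, an isomerase that forms and corrects disulfide bonds, had a saturated brightest probe (3 of 6 arrays in FID cells and 3 of 6 in control cells) with 0.04 ± 0.10. Its other probes gave -0.32 ± 0.10 and -0.49 ± 0.11, and their ratios were negative in all 3 replicates. The probe with -0.49 depended on the dye. Its ratios were 0.07, -0.24 and 0.09 with FID in Cy5, and -0.94, -1.14 and -0.79 with FID in Cy3. The related PDIA4 had -0.55 ± 0.20 (adjusted p = 0.220, and 0.0793 with the replicate block), with replicate 4 near 0.

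The remaining ER members passed neither fit. HSPA13, an ER relative of HSPA5, had a ratio of 0.33 ± 0.11 and was positive in all 3 replicates. SEL1L, the adaptor of the degradation complex that also holds HERPUD1, had -0.12 ± 0.15, and EDEM1, which marks misfolded glycoproteins for that complex, had -0.39 ± 0.20. The plot of bright members shows how close to the top of the scan these probes lay.

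**Figure D4:**
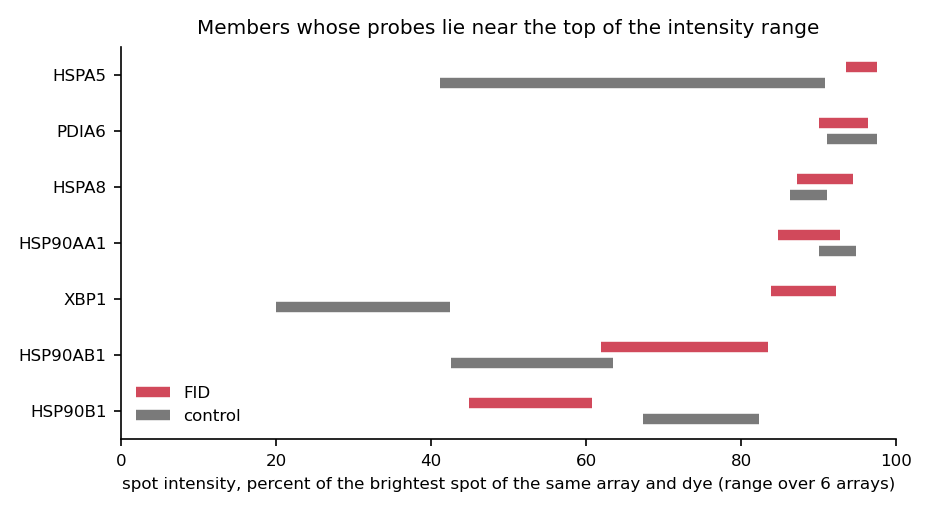
Spot intensity as a percent of the brightest spot of the same array and dye (x axis), as the range over 6 arrays, in FID cells (upper bar) and control cells (lower bar), for the 7 members that passed 80% on any array. PDIA6, HSPA8 and HSP90AA1 lie near the top in both conditions, HSPA5 in FID cells (93.5% to 97.5%), and XBP1 in FID cells (83.9% to 92.3%) but not in control cells (20.0% to 42.5%).

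The sensors and transcription factors of the ER response were read next. XBP1, the factor whose mRNA is spliced by IRE1, had signals of 37519, 37504 and 40130 in FID cells and 13087, 15625 and 9633 in control cells. All FID cells were far above all control cells, on all 6 arrays, with a ratio of 1.61 ± 0.19 (3.06-fold, adjusted p = 0.0536, and 0.00141 with the replicate block). Its adjusted p passed the threshold in 6 of 12 alternative settings that kept all replicates, and the ratio lay between 1.41 and 1.82 in them. The FID spots reached 83.9% to 92.3% of the brightest spot, as bright as those of HSPA8, and the control spots 20.0% to 42.5%. None was saturated, but this ratio too may be held towards 0. The array gives the amount of XBP1 mRNA, and its splicing was not measured here.

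ATF4, the central factor of the integrated stress response, had 4735, 4290 and 5039 in FID cells and 2329, 3208 and 816 in control cells. The FID cells were close together and above all control cells, while the control cells of replicate 4 were the lowest. Its ratio was 1.36 ± 0.48 (adjusted p = 0.213, and 0.0386 with the replicate block), and the mean was 0.72 without replicate 4. DDIT3, the death-promoting factor CHOP that ATF4 activates, had 528, 585 and 566 in FID cells and 240, 299 and 151 in control cells. The groups did not overlap, the control cells of replicate 4 were again the lowest, and the ratio was 1.34 ± 0.22 (adjusted p = 0.0739, and 0.00385 with the replicate block). Its other probes gave 1.14 ± 0.19 and 0.68 ± 0.11.

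EIF2AK3, the sensor PERK, had 535, 533 and 758 in FID cells and 318, 305 and 553 in control cells. The gap was present in each replicate, although control cells of replicate 4 exceeded the FID cells of the other replicates, and the ratio was 0.67 ± 0.11 (adjusted p = 0.0749, and 0.00982 with the replicate block). ERN1, the sensor IRE1, was dim, at 159, 155 and 126 in FID cells and 139, 148 and 125 in control cells. Its ratio of 0.09 ± 0.09 changed sign with the dye, at 0.39 with FID in Cy5 and -0.21 with FID in Cy3.

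The heat shock factors themselves showed little difference at this signal. HSF1, the factor that switches on HSPA1A, DNAJB1 and HSPB1, had 137, 139 and 128 in FID cells and 139, 129 and 115 in control cells, close to background, which FID cells exceeded on 4 and control cells on 5 of 6 arrays. Its ratio was 0.08 ± 0.09 (adjusted p = 0.677, 95% confidence interval -0.17 to 0.34). HSF2, a related factor, had 0.27 ± 0.15 (adjusted p = 0.400) with replicate 2 at -0.05. HSF1 acts mainly through its protein state, which these arrays do not read.

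Of the stress targets, DDIT4 and PPP1R15A stood above control in FID cells in every replicate, and TRIB3 and ASNS depended on the replicate. DDIT4, an inhibitor of the growth kinase mTORC1, had 2185, 2203 and 4326 in FID cells and 850, 1248 and 1623 in control cells. The groups did not overlap, with a ratio of 1.20 ± 0.16 (adjusted p = 0.0577, and 0.00658 with the replicate block). PPP1R15A, the phosphatase subunit that restores translation after PERK, had 184, 207 and 149 in FID cells and 136, 124 and 103 in control cells, which exceeded background on 3 of 6 arrays. The FID cells were above all control cells by a small margin, at 0.57 ± 0.10 (adjusted p = 0.0812, and 0.0346 with the replicate block). It passed the filter on dim signal only through the FID cells, where it is higher, so its ratio and its call are no independent support. With both conditions above background on all arrays it was not tested, and the class median was then 0.38.

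TRIB3, a pseudokinase that DDIT3 and ATF4 activate, had ratios of 0.05, 0.12 and 0.99 in replicates 1, 2 and 4. ASNS, asparagine synthetase and a target of ATF4, had -0.78, -0.72 and 0.81. In both, replicate 4 stood highest, as it did for ATF4 at 1.02, 0.42 and 2.63 and for DDIT3 at 1.14, 0.97 and 1.91. Replicate 4 was also the highest for members of other classes, among them HSPA1A, DNAJB1, XBP1 and HSP90AB1, though not for DNAJB9. This order was thus not particular to ATF4, DDIT3 and their targets. The mean ratios of 0.38 ± 0.23 for TRIB3 and -0.23 ± 0.38 for ASNS passed neither fit (adjusted p = 0.426 and 0.804).

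Of 10 members with more than 1 tested probe, 7 had probes of the same sign and 3, HSPD1, HSP90B1 and PDIA6, had probes of both signs. HSPA1A, HSPB1, DNAJB1 and DDIT3 were among those with the same sign. The authors' deposited ratios for the same probes had the same sign as those above for 33 of 35 members, with a median difference in size of 0.04 and a largest one of 0.13.

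**Figure D5:**
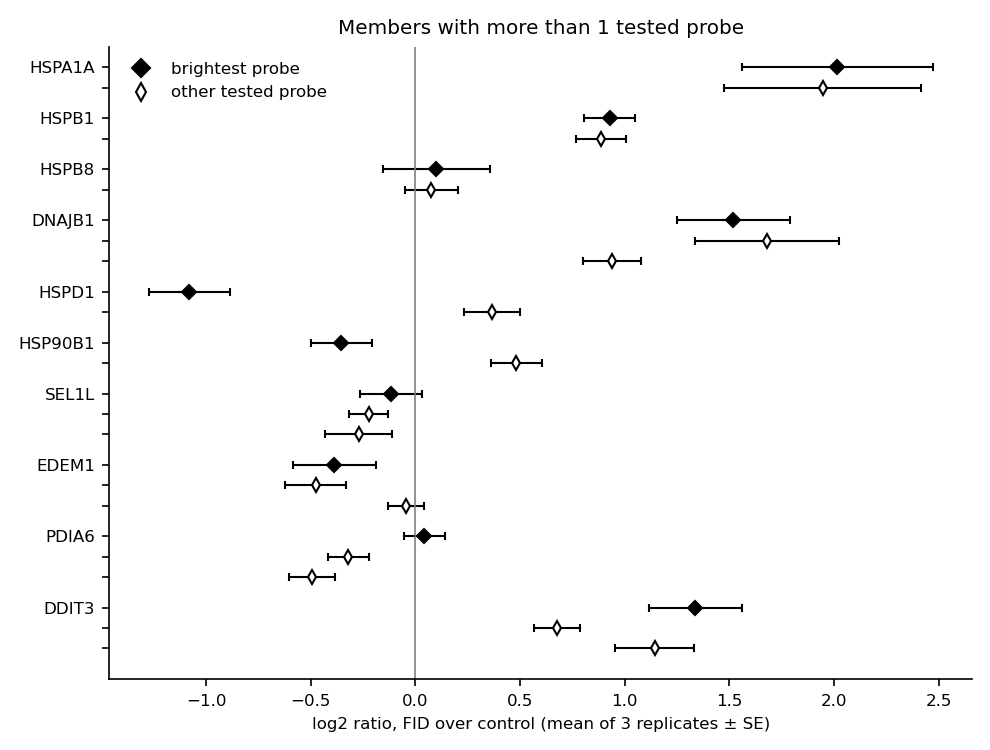
Log2 ratio of FID over control (x axis, mean ± moderated SE, n = 3 replicates) of each tested probe of the 10 members with more than 1. The brightest probe is filled and the others are open. The probes of HSPA1A, HSPB1, DNAJB1 and DDIT3 lie on 1 side of 0, and those of HSPD1, HSP90B1 and PDIA6 on both.

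A wider list of 117 other chaperones, folding enzymes and stress response genes gave 102 tested genes, with a median ratio of -0.19. In the test of the 3 replicate ratios 0 were higher and 4 were lower, beside 1.06% and 1.29% of all genes. With the replicate block 12 were higher and 12 lower (11.8% each), beside 8.84% and 11.9% of all genes. EIF2AK2, the kinase PKR that senses double-stranded RNA and acts on the same translation factor as PERK, had 583, 590 and 359 in FID cells and 2142, 4533 and 1811 in control cells. It fell, with a ratio of -2.39 ± 0.24 (adjusted p = 0.0492). CHORDC1, a partner of HSP90, had 1306, 1193 and 1583 in FID cells and 3765, 4442 and 5802 in control cells, and fell, with a ratio of -1.77 ± 0.12 (adjusted p = 0.0476).

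BAG2, a co-chaperone that inhibits the ubiquitin ligase CHIP, had 2619, 2052 and 2979 in FID cells and 5664, 4868 and 6706 in control cells, and fell, with a ratio of -1.18 ± 0.09 (adjusted p = 0.0476). PSAT1, a serine synthesis enzyme that ATF4 is known to activate, had 8403, 12485 and 8369 in FID cells and 23226, 27528 and 24911 in control cells, and fell, with a ratio of -1.39 ± 0.12 (adjusted p = 0.0476). For these 4 genes the FID cells all lay below the control cells. EIF2AK4, the amino acid sensor GCN2, was also among the 3 lowest of the list, at -1.78 ± 0.19 (adjusted p = 0.0507).

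The highest ratios of the wider list belonged to ATF3, SLC3A2 and SYVN1. ATF3, a stress-induced transcription factor, had 22625, 10889 and 23035 in FID cells and 1928, 4562 and 2246 in control cells, with the narrowest gap in replicate 2 as for HERPUD1 and HSPA1A. Its ratio was 2.72 ± 0.54 (adjusted p = 0.0902, and 0.00412 with the replicate block). SLC3A2, the heavy chain of amino acid exchangers, had a ratio of 1.60 ± 0.33 (adjusted p = 0.0944, and 0.00589 with the replicate block). SYVN1, the ubiquitin ligase of the complex that holds HERPUD1 and SEL1L, had 1.47 ± 0.21 (adjusted p = 0.0615, and 0.00204 with the replicate block), at 4789, 3833 and 5246 in FID cells against 2231, 1542 and 1324 in control cells.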

How the data were processed

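The deposited scanner files hold raw spot intensity and local background intensity for Cy3 and Cy5, per the file headers. The authors' deposited log2 ratios, in 2 identical tables, ran as Cy5 over Cy3 with slopes of 0.933 to 1.03 on the scanner ratios, while their normalization and centring are not given in the sources used here. They were used as an alternative. The other value read per spot, whether it was marked to be ignored, is also per the file headers.

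Each array had 45220 spots, of which 43794 were probes, 21790 with 1 gene symbol, 22004 with none and 0 with several. Symbols were updated through RefSeq synonyms for 982 names. In R 4.3.3 with limma 3.58.1, the 13 to 88 marked spots per array were left out, then background was corrected (normexp, offset 50) and ratios were normalized by loess within arrays. Signs were turned on the arrays with FID in Cy3, and the 2 arrays of a replicate were averaged. A probe was tested where it exceeded the 95th percentile of 153 negative control spots, in either condition, on at least 4 of 6 arrays. The brightest tested probe represented a gene. The mean ratio was tested against 0 with lmFit and eBayes (2 residual and 1.85 prior degrees of freedom), and p-values were adjusted by Benjamini-Hochberg over the 32192 tested probes. A second fit took all 6 arrays with a dye term and the replicate block (consensus correlation 0.606). Each ratio is paired within its array, and ratios of the replicates correlated at 0.562 to 0.591 across probes. A spot was called saturated where its median pixel reached 65500. Both fits were also run on simulated data, with the same noise for all probes and a smaller replicate spread than in these arrays. That run checks the computation and not the calls above.

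The members and the gene lists were chosen with earlier results of these data known. Every member is accounted for. Replicate values and full statistics are given for members that passed either fit, for the 3 highest and 3 lowest ratios and for defining members of each branch, and for genes of the wider list that passed or were among its 3 highest and 3 lowest. No probe or promoter sequence was used here, and no coordinates are given. The number of replicates limits the precision.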

Additional observations from a re-analysis of the deposited data

Results flagged for a closer look

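Among the 50 tested probes of the members, 2 gave opposite signs on all arrays with FID in Cy5 and all arrays with FID in Cy3, as 14.3% of all tested probes did. The dimmer probe of HSPD1 had a mean ratio of -0.90 with FID in Cy5 and 1.63 with FID in Cy3, a dye effect of -1.27 (adjusted p = 0.000822 for the dye term with the replicate block). The probe of ERN1 had 0.39 with FID in Cy5 and -0.21 with FID in Cy3, a dye effect of 0.30 (adjusted p = 0.0163).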

How the results depend on the processing

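The count of calls depended on the processing more than the ratios did. The 555 probes, 291 genes, 1 member and 4 wider genes past the threshold became 0, 0, 0 and 0 without background correction, with marked spots kept in the background fit and on the authors' deposited ratios. They were 972, 536, 3 and 8 with both conditions above background on all arrays, 1611, 797, 6 and 9 with only the arrays with FID in Cy5, and 2269, 1119, 4 and 15 with only those with FID in Cy3. They were 1365, 636, 4 and 7 with trended robust variances, and 5186, 2567, 13 and 24 with the replicate block. Median centring gave 2 members, and the mean of all probes of a gene gave 2 wider genes. Without any 1 of the replicates every one of these counts was 0 (lowest and highest 0), against 7563 probes at an unadjusted p under 0.05 with all 3. The cause was not tested. In the replicate block fit, leaving out replicate 1, 2 or 4 gave 6, 6 and 10 members higher and 2, 1 and 2 lower, beside 5.39%, 3.38% and 4.63% of all genes higher and 8.98%, 3.35% and 6.1% lower.

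The median of the mitochondrial class was -0.24 with FID in Cy5 only, and -0.93 to -0.55 with 1 replicate left out. That of the ER class was -0.24 with unsaturated probes, an alternative chosen after seeing the data, and that of the sensors and factors was 1.00 where 6 of them passed the stricter filter. Ratios near 0 took the other sign in some settings. With median centring HSPA8 was -0.060, HSPH1 -0.17 and PDIA6 -0.076, and on the authors' ratios HSPA8 was -0.013 and PDIA6 -0.010. With FID in Cy3 only, HSP90AA1 was 0.0066, HSPB8 -0.042, SEL1L 0.044 and ERN1 -0.21. The mean of all probes gave 0.063 for HSP90B1 and -0.26 for PDIA6, and unsaturated probes -0.49 for PDIA6. With 1 replicate left out, HSPA8 ran from -0.019 to 0.13, HSP90AA1 from -0.073 to 0.022, HSPB8 from -0.22 to 0.36, HSPH1 from -0.040 to 0.25, SEL1L from -0.28 to 0.013, PDIA6 from -0.025 to 0.099 and ASNS from -0.75 to 0.042. A slide or scan block was not run, since the headers give neither. Saturated spots limit HSPA5 and PDIA6, and low signal limits HSF1, ERN1 and PPP1R15A. Signal near the top of the range limits HSPA8, HSP90AA1 and XBP1, and on some arrays HSP90AB1 and HSP90B1.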

Other observations

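Other folding machines of the wider list, named after their values were seen, had ratios of either sign. All 8 measured subunits of TRiC, the chaperonin of the cytosol that folds actin and tubulin, had negative ratios, between -1.19 and -0.18, and 5 of them were lower in FID cells on all 6 arrays, beside 15.4% of all genes. CCT5 had -1.19 ± 0.14 (adjusted p = 0.0543, and 0.00347 with the replicate block) and TCP1 had -0.93 ± 0.17 (adjusted p = 0.0808, and 0.00948 with the replicate block), and the other 6 passed neither fit.

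In the mitochondria, 3 genes of the wider list were higher in FID cells on all 6 arrays, as 12.4% of all genes were, and opposite in sign to HSPA9, HSPD1 and HSPE1. TRAP1, the HSP90 of mitochondria, had 1.29 ± 0.30 (adjusted p = 0.114, and 0.00958 with the replicate block). DNAJA3, a J-domain partner of HSPA9, had 0.79 ± 0.09 (adjusted p = 0.0541, and 0.00465 with the replicate block), and CLPX, the unfolding subunit of a matrix protease, had 0.88 ± 0.13 (adjusted p = 0.0648, and 0.00481 with the replicate block). The other 6 tested genes of that list had ratios between -0.30 and 0.24 and passed neither fit.

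Of the 30 tested ER genes of the wider list, 4 were higher and 2 lower with the replicate block, beside 8.84% and 11.9% of all genes. Beside SYVN1, the higher ones were ERO1A, an oxidase that supplies disulfide bonds, at 0.78 ± 0.17 (block adjusted p = 0.0219), SIL1, an exchange factor for HSPA5, at 0.74 ± 0.22 (0.0398), and SEC61B, a subunit of the ER translocon, at 0.67 ± 0.08 (0.0134). EDEM3, which trims sugars of misfolded glycoproteins, had -1.46 ± 0.18 (adjusted p = 0.0557, and 0.0015 with the replicate block), while its relative EDEM1 passed neither fit. HYOU1, another exchange factor for HSPA5, had -0.55 ± 0.10 (adjusted p = 0.0806, and 0.0162 with the replicate block).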
